A study of Mus musculus with 11 samples.

Results

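The unfolded protein response was followed here through 10 genes, listed by name for their roles as sensors, transcription factors and chaperones of the endoplasmic reticulum (ER). No cut on measured values was used, but earlier results of these data were known when they were chosen. The 10 genes were Ern1, Ern2, Xbp1, Creb3l1, Atf4, Ddit3, Hspa5, Hsp90b1, Dnajb9 and Pdia4. All 10 were found among the 37310 gene identifiers of the deposited tables, and all 10 were among the 13278 genes that passed the filter on low counts. The fewest reads for any of them in a library were 97, for Ern2, and the most were 19887, for Hspa5.

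Secreted and membrane proteins fold in the ER, and cells that secrete heavily, such as goblet and Paneth cells of the gut, depend on its chaperones. When unfolded proteins build up, the sensors IRE1, PERK and ATF6 start the response: IRE1 splices Xbp1 mRNA, PERK phosphorylates eIF2 alpha and so favours translation of ATF4, and ATF6 is cut to release a transcription factor. Chaperone genes are targets of XBP1 and ATF6, and amino acid and stress genes such as Ddit3 are targets of ATF4. Splicing of Xbp1 and translation of Atf4 are not seen in counts of reads per gene, so the values below are total transcript levels.

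RNA was sequenced from organoids, self-organising epithelial cultures, from mice carrying the Lgr5-EGFP-IRES-creERT2 allele, in which the stem cell gene Lgr5 drives a green fluorescent protein and an inducible Cre recombinase. All groups carried that allele, all were labelled as small intestine epithelium although the protocol also covers colon, no treatment is named, and cultures were split every 7 days. Late libraries came from passages 11, 12 and 13 of mouse_285 and mouse_283 (n = 6), and early libraries from passages 2 and 4 of mouse_285 and passages 2, 3 and 4 of mouse_283 (n = 5). Ages of 4 and 24 months were named for the mice but tied to neither animal, so ages were not compared. The comparison of late with early passage addresses what extended culture does to gene expression, which the design text gives as an aim. Libraries of the same animal were passages of that animal's organoids, so p-values measure the spread between the 11 libraries and not between many animals. Because whole cultures were measured, fewer cells of a type and less RNA per cell cannot be told apart.

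The promoters of chaperone genes carry the ER stress response element (ERSE), the sequence that ATF6 binds together with NF-Y, spelled CCAAT, then 9 bases of any kind, then CCACG. RefSeq promoter windows (GRCm38.p6, 250 bases before to 50 after the start) were matched for 8 of the 10 genes, all but Ern2 and Creb3l1. The element was found on either strand in 2 of these 8 windows, against 0.119% of all 32851 windows. The 2 are printed because they hold the only motif matches among these genes and belong to the main ER chaperones. The 250 bases before the start are shown 5′ to 3′, with the element in capitals. That of Hspa5 lies at chr2:34771840-34772089 on the plus strand and holds 1 element, and that of Hsp90b1 at chr10:86705445-86705694 on the minus strand and holds 2, the second on the reverse strand.
Hspa5: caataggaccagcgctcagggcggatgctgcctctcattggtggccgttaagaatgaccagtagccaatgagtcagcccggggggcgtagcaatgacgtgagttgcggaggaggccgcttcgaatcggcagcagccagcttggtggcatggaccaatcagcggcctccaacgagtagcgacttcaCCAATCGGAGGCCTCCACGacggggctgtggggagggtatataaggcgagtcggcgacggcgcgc
Hsp90b1: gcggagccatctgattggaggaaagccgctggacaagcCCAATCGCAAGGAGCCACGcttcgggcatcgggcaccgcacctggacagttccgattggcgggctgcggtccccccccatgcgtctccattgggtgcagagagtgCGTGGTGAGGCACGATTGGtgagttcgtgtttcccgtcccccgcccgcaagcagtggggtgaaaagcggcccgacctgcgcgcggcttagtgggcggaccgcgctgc
ERSE-II (ATTGG, 1 base of any kind, CCACG; in 0.0365% of all windows), the element TGACGTGG (0.676%) and the amino acid response core TGATGCAA (0.895%) were found in none of the 8 windows, which says only that these letters are not there.

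The depth of the libraries ran from 15114132 to 28949911 gene reads. Passages 3 and 4 of mouse_283, both early, stood apart from the other 9: GC-rich genes were high and GC-poor genes low there, with slopes of 1.00 and 0.80 on the log2 scale for 10 points of GC content, where the others had -0.42 to 0.21. The share of mitochondrially encoded reads was also lowest in passage 3 of mouse_283 (1.05%). Each comparison below was therefore also run without these 2 libraries and with a correction on GC content and transcript length. The epithelial markers Epcam (612 to 1227 CPM, read counts normalised by TMM and scaled to a common library size) and Krt8 (2113 to 7102 CPM) were high in every library. The leukocyte marker Ptprc was at most 0.0326 CPM. The 12 leukocyte markers listed, Ptprc included, summed to 6.11 to 10.4 CPM in late libraries and 4.62 to 15.7 CPM in early ones, with 3 of them at 0.

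Atf4, Hspa5 and Xbp1 were the most abundant of the 10 transcripts per kb. In late libraries Atf4 averaged 171 ± 15.9 CPM per kb, Hspa5 149 ± 21.2 and Xbp1 134 ± 10.5 (SD, n = 6), and the ranges of neighbours in this order overlapped. All 3 lay apart from Hsp90b1 (56.3 ± 13.3 CPM per kb) and Pdia4 (54.7 ± 4.49 CPM per kb), which overlapped each other. Ddit3 followed at 27.5 ± 8.40 CPM per kb, apart from both of its neighbours. Creb3l1 (8.01 ± 1.01 CPM per kb), Dnajb9 (7.42 ± 1.17), Ern1 (4.72 ± 1.04) and Ern2 (2.67 ± 0.75) were lowest, each overlapping the next. In early libraries every neighbour in the order overlapped, with Xbp1 first at 211 ± 67.1 CPM per kb and Ern2 last at 3.05 ± 1.11 CPM per kb (SD, n = 5). Ern1 was above Ern2 per kb in every library, by 1.03 to 2.62 times with a median of 1.86.

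**Figure D1:**
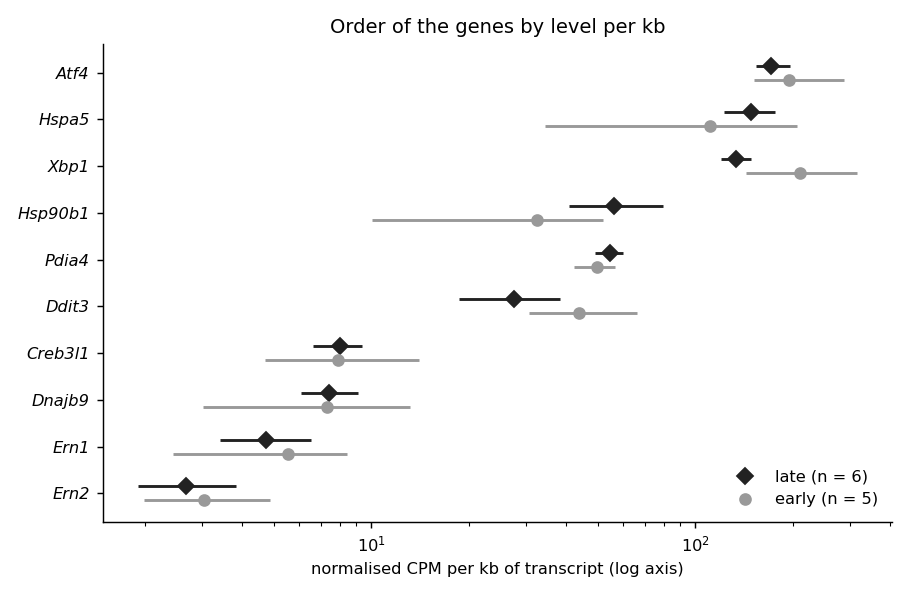
Level of each of the 10 genes in normalised CPM per kb of transcript on a log axis, with late libraries (diamonds, n = 6) above early libraries (circles, n = 5); points are means and lines run from the lowest to the highest library. Late libraries form separate steps between Xbp1 (134) and Hsp90b1 (56.3) and on both sides of Ddit3 (27.5), and the early ranges are wider.

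The sensors showed no late-early difference that passed the test. Ern1 encodes IRE1 alpha, the sensor found in most cell types. It had 30.4, 23.6 and 34.4 CPM at passages 11, 12 and 13 of mouse_285 and 32.96, 29.7 and 45.4 CPM at those of mouse_283, against 41.0 and 39.8 CPM at passages 2 and 4 of mouse_285 and 58.5, 17.0 and 36.2 CPM at passages 2, 3 and 4 of mouse_283. Late and early libraries overlapped over both animals, and in mouse_285 alone every late library was below both early ones. The log2 difference, late over early, was -0.23 (SE 0.27, adjusted p = 0.579), and -0.55 (SE 0.16, adjusted p = 0.0786) without passages 3 and 4 of mouse_283.

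Ern2 encodes IRE1 beta, the form of the sensor found in gut and airway epithelium. It ran from 5.65 to 11.3 CPM in late libraries with a median of 7.55 CPM, against early values of 8.74 and 9.12 CPM in mouse_285 and 14.4, 6.99 and 5.88 CPM in mouse_283. The groups overlapped, with the highest value at passage 2 of mouse_283. Its log2 difference was -0.21 (SE 0.28, adjusted p = 0.618).

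Xbp1, the transcription factor whose mRNA IRE1 splices, was lower in every late library than in every early library of the same animal, but the difference did not pass the test. It had 264, 256 and 290.1 CPM in late libraries of mouse_285 and 286, 299.96 and 316 CPM in those of mouse_283, against 305 and 502 CPM in early libraries of mouse_285 and 380.0, 671 and 385 CPM in those of mouse_283. The late values lay close together and the early ones were spread, the highest at passage 3 of mouse_283. The log2 difference was -0.63 (SE 0.19, adjusted p = 0.0919), and -0.49 (SE 0.15, adjusted p = 0.100) without passages 3 and 4 of mouse_283. Xbp1 was the 1 gene of 10 with all late libraries below all early libraries in both animals, a pattern shown by 5.7% of all tested genes, and 0 of the 10 had the opposite pattern, shown by 4.02%.

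Creb3l1 encodes OASIS, a membrane-bound transcription factor of the ER. It ran from 17.2 to 24.3 CPM in late libraries with a median of 20.6 CPM, against 12.2 and 18.9 CPM in early libraries of mouse_285 and 14.8, 36.5 and 20.5 CPM in those of mouse_283. The early value at passage 3 of mouse_283 was the highest of all, and the passage 2 values of both animals were the lowest. Late over early, the log2 difference was 0.07 (SE 0.25, adjusted p = 0.856), and it was 0.52 (SE 0.14, adjusted p = 0.0454) with the GC and length correction, which passes the threshold.

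Atf4, the transcription factor of the PERK branch, spanned 1.90 times between its lowest and highest library, less than any of the 10 but Pdia4. It had 312, 347 and 314 CPM in late libraries of mouse_285 and 344, 398 and 362 CPM in those of mouse_283, against 374 and 379 CPM in early libraries of mouse_285 and 323, 583 and 306 CPM in those of mouse_283. Passage 3 of mouse_283 was the single high value, and the other early values, 306 to 379 CPM, lay in or just below the late range. Atf4 differed by -0.17 on the log2 scale (SE 0.18, adjusted p = 0.528).

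Ddit3 encodes CHOP, a transcription factor induced through ATF4 in prolonged stress. It had 21.8, 18.0 and 18.9 CPM in late libraries of mouse_285 and 30.9, 37.1 and 33.3 CPM in those of mouse_283, against 42.4 and 38.1 CPM in early libraries of mouse_285 and 38.5, 64.1 and 29.7 CPM in those of mouse_283. In mouse_285 all late values were well below both early values, while in mouse_283 they overlapped through the low early value at passage 4. The log2 difference was -0.68 (SE 0.21, adjusted p = 0.103) over all libraries. It passed the threshold without passages 3 and 4 of mouse_283 (-0.73, SE 0.17, adjusted p = 0.0309) and with the GC and length correction (-0.99, SE 0.16, adjusted p = 0.00337). In the GENCODE M21 annotation, which is of a later build than the counts, 68 exon bases of Ddit3 overlap Mars on the other strand. It also shares 105 bases on the same strand with a second entry named Ddit3, and 13 on the other strand with Gm4189. Unstranded reads in shared bases cannot be assigned to 1 gene. The deposited tables hold ambiguous reads on a separate line (3.11% to 4.03% of reads), which was left out of the counts. Mars1 itself had a log2 difference of -0.31 (SE 0.17, adjusted p = 0.265).

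Hspa5 encodes BiP, the main ER chaperone of the HSP70 family. It had 484, 449.6 and 554 CPM in late libraries of mouse_285 and 527, 649 and 624 CPM in those of mouse_283, against 585 and 414 CPM in early libraries of mouse_285 and 760.2, 149 and 126 CPM in those of mouse_283. The highest and the 2 lowest of the 11 values were thus early libraries of the same animal. For Hspa5 the log2 difference was 0.43 (SE 0.40, adjusted p = 0.485), and it turned to -0.14 (SE 0.15, adjusted p = 0.658) without passages 3 and 4 of mouse_283.

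Hsp90b1 encodes GRP94, the ER form of HSP90. It had 184, 183 and 185 CPM in late libraries of mouse_285 and 148, 256 and 131 CPM in those of mouse_283, against 162 and 114 CPM in early libraries of mouse_285 and 167, 48.2 and 32.3 CPM in those of mouse_283. Late exceeded early throughout mouse_285, and in mouse_283 the passage 2 value lay among the late ones. The log2 difference was 0.80 (SE 0.37, adjusted p = 0.214), and 0.29 (SE 0.20, adjusted p = 0.455) without passages 3 and 4 of mouse_283. In GENCODE M21, 415 of its 4032 exon bases overlap 1810014B01Rik on the other strand, where unstranded reads likewise cannot be assigned to either gene. On the same strand 84 bases overlap Gm15344 and 133 overlap Gm25745.

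Dnajb9 encodes ERdj4, a co-chaperone of BiP. It ran from 14.9 to 22.3 CPM in late libraries with a median of 18.0 CPM, against 24.1 and 16.5 CPM in early libraries of mouse_285 and 32.4, 9.14 and 7.43 CPM in those of mouse_283. As with Hspa5, passage 2 of mouse_283 was highest and passages 3 and 4 were lowest. The difference came to 0.03 on the log2 scale (SE 0.34, adjusted p = 0.955), and it turned to -0.45 (SE 0.17, adjusted p = 0.158) without those 2 libraries.

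Pdia4, a protein disulfide isomerase, varied least, by 1.42 times between its lowest and highest library. It ran from 117 to 144 CPM in late libraries with a median of 132 CPM, against 119.7 and 102 CPM in early libraries of mouse_285 and 132, 108 and 136 CPM in those of mouse_283. The groups overlapped, and passages 3 and 4 of mouse_283 lay within the range of the other libraries. Pdia4 differed by 0.15 on the log2 scale (SE 0.13, adjusted p = 0.447).

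**Figure D2:**
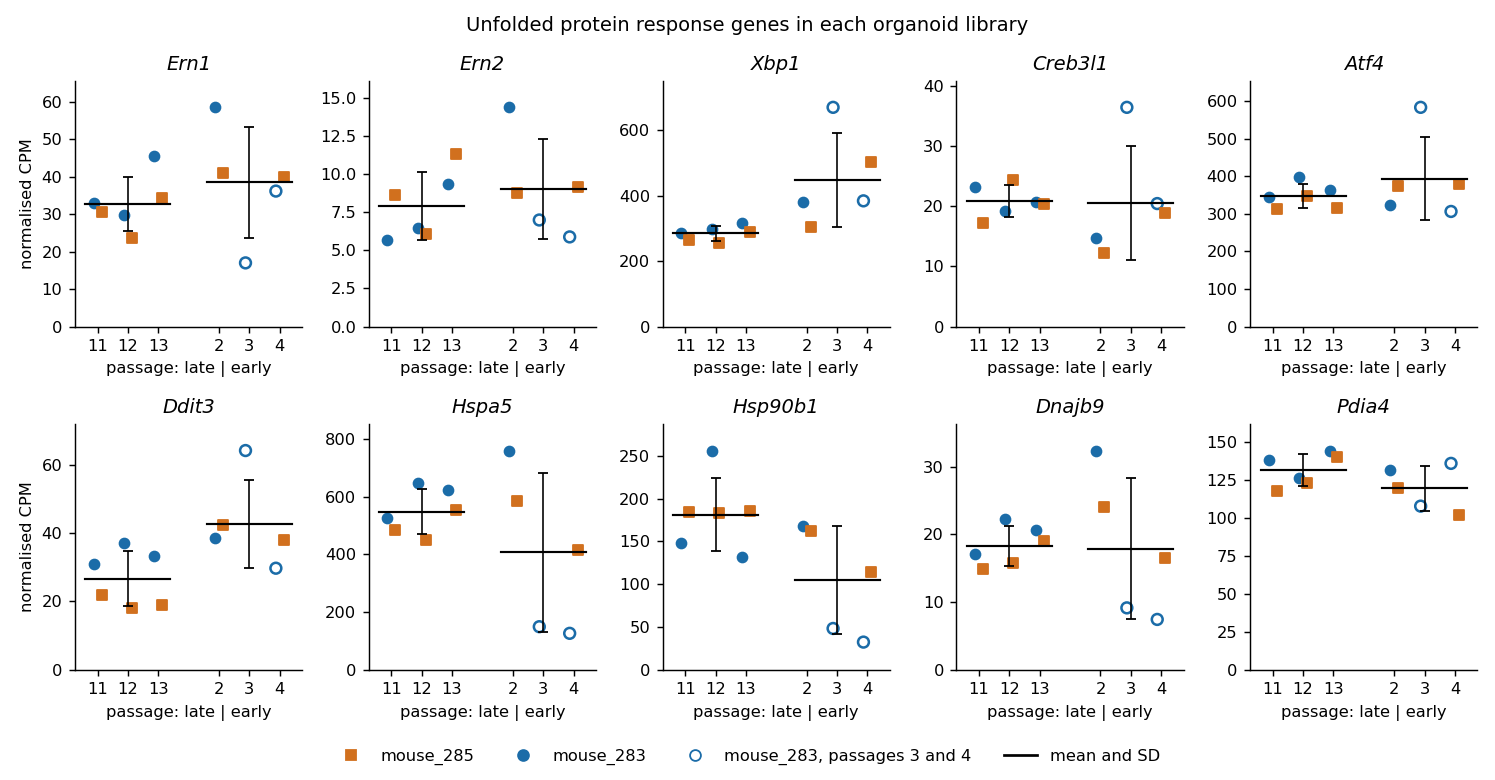
Normalised CPM of each of the 10 genes in every library, late passages left of early ones, with mouse_285 as squares and mouse_283 as circles; open circles are passages 3 and 4 of mouse_283, and black lines are group means with SD. Hspa5, Hsp90b1 and Dnajb9 are lowest in the open circles, and Xbp1, Atf4, Ddit3 and Creb3l1 are highest in that of passage 3.

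Set together, 0 of the 10 genes passed the test late against early, where 399 of 13278 genes did (3%) by edgeR's quasi-likelihood test with Benjamini-Hochberg adjustment over all tested genes. Xbp1 and Ddit3 had an unadjusted p under 0.05 (0.00558 and 0.00769), as did 3174 of all tested genes. With other tools, limma-voom called 0 of the 10, and DESeq2 called Xbp1 (adjusted p = 0.0374) and Ddit3 (adjusted p = 0.0472). DESeq2 also called more of all tested genes than edgeR's test did, as given in the section on processing. The 10 log2 differences ran from -0.68 to 0.80 with a median of -0.07, beside -0.02 over all tested genes, and 5 were positive and 5 negative. Leaving out passage 2 of mouse_283, so that its early libraries were passages 3 and 4 alone, 3 of the 10 were called: Hsp90b1 at 1.23, Xbp1 at -0.70 and Ddit3 at -0.76. In that setting 4892 of all genes were called. Ddit3 was also called without passage 4 of mouse_283 (-0.82, adjusted p = 0.0320).

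**Figure D3:**
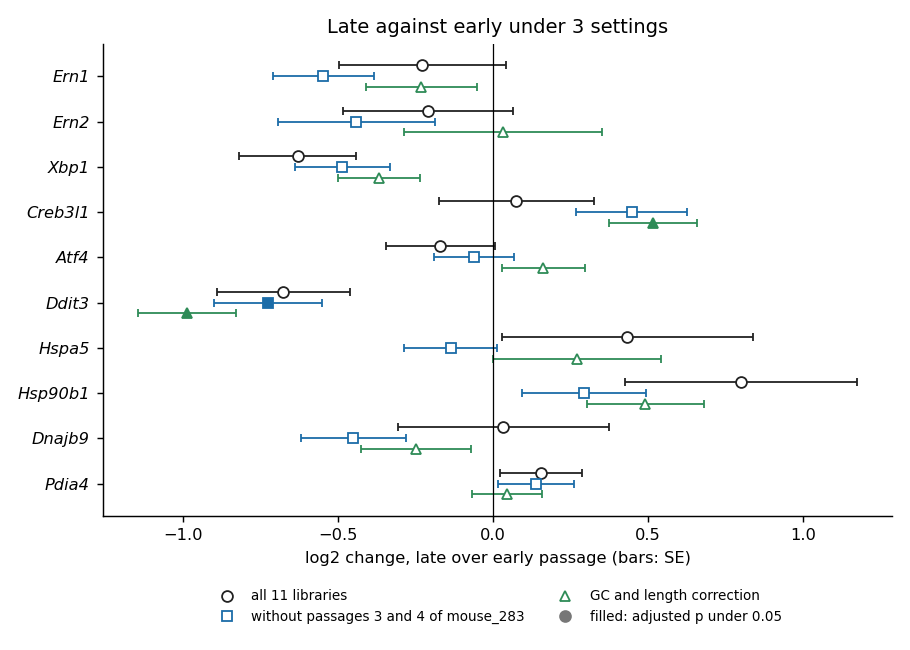
Log2 difference, late over early, with SE bars, for each gene from all 11 libraries (circles), without passages 3 and 4 of mouse_283 (squares) and with the GC and length correction (triangles); filled symbols have an adjusted p under 0.05. Ddit3 lies below 0 in all 3 settings (-0.68, -0.73 and -0.99) and is filled in the last 2, while Hspa5 and Dnajb9 lie on both sides of 0.

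The libraries of passages 3 and 4 of mouse_283 split the 10 genes. At passage 3, 6 genes were below their means over the other 9 libraries, with log2 deviations of -1.88 for Hspa5, -1.78 for Hsp90b1, -1.10 for Dnajb9, -1.08 for Ern1, -0.28 for Ern2 and -0.23 for Pdia4. Ddit3 (1.11), Xbp1 (1.09), Creb3l1 (0.97) and Atf4 (0.74) were above theirs. At passage 4 the deviations of Hsp90b1 (-2.36), Hspa5 (-2.13) and Dnajb9 (-1.40) were again the lowest, and the highest was that of Xbp1 (0.29). These 3 chaperone genes had 42.1%, 45.6% and 40.6% GC in their transcripts and Xbp1, Atf4 and Creb3l1 had 53.0%, 55.5% and 59.5%. Across the 10 genes, Spearman's rho of deviation and GC content was 0.55 at passage 3 and 0.59 at passage 4, given as a description over genes that share a library. Ddit3, at 45.6% GC, and Ern2, at 56.9% GC, lay off this order. The part of base composition in the result was not tested beyond the correction: with it the log2 differences of Hspa5, Hsp90b1 and Xbp1 were 0.27, 0.49 and -0.37, against 0.43, 0.80 and -0.63 without it.

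**Figure D4:**
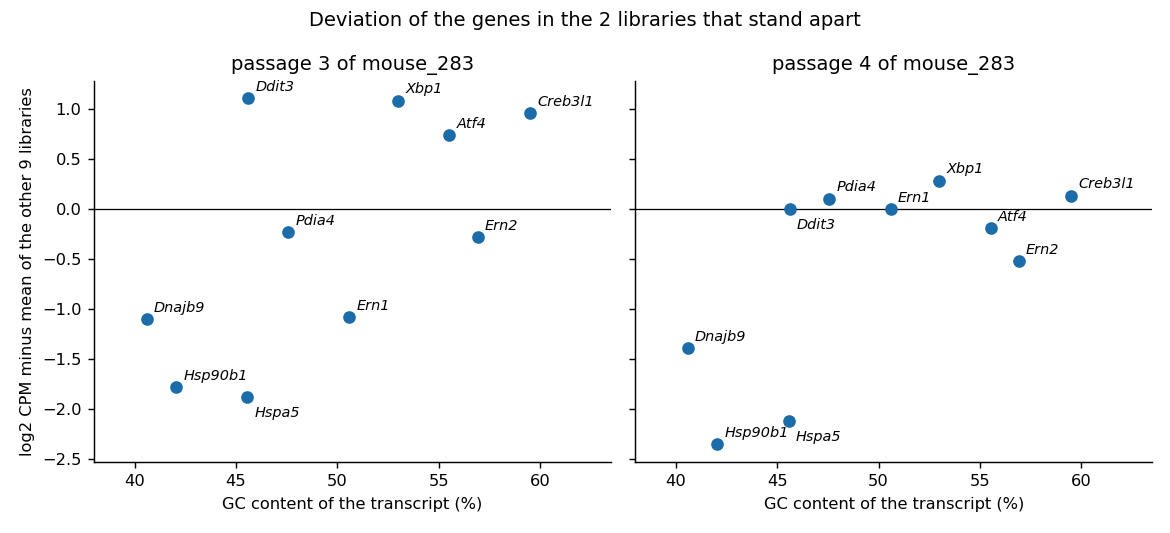
Deviation of each gene's log2 CPM from its mean over the other 9 libraries, at passages 3 (left) and 4 (right) of mouse_283, against the GC content of its transcript in percent. Hspa5, Hsp90b1 and Dnajb9 lie lowest in both panels (down to -2.36), and Ddit3 lies at 1.11 on the left despite 45.6% GC.

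Among the 10 genes, Hspa5 and Dnajb9 kept the closest pattern whether or not those 2 libraries were counted. Their log2 CPM had a Pearson r of 0.95 over 11 libraries and 0.89 over 9. Hspa5 and Hsp90b1 had an r of 0.93 over 11 libraries but 0.35 over 9, so this likeness rests on passages 3 and 4 of mouse_283. Ern1 and Ern2, the paired sensors, had an r of 0.63 over 11 and 0.78 over 9. Ddit3 and Atf4 had an r of 0.75 over 11 and 0.62 over 9. These values are descriptions: the libraries share 2 animals, and depth and base composition differ between them.

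Over all tested genes, those most like Hspa5 across the 11 libraries were Galnt3, Snx4, Nipa2, Steap2 and Rnf13 (Pearson r 0.991 to 0.994; 0.90 to 0.95 over 9). Those most like Ddit3 were Cyb5r1, Oasl1, Cox6a2, Ripk3 and Anxa2 (r 0.944 to 0.960; 0.92 to 0.95 over 9). Zzef1, Hinfp, Farp2, Abcg2 and Nhlrc2 were most like Ern2 (r 0.891 to 0.951), and Fev, C2cd4c, E2f4, Tomm22 and Prr3 most like Creb3l1 (r 0.894 to 0.925). The 5 most like Hspa5 had 37.5% to 44.1% GC in their transcripts, and the part of base composition in this likeness was not tested. None of these 20 was in a list of ER or stress genes used here. Those lists hold only a small part of all tested genes, so nothing is read from that.

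Between the animals, none of the 10 genes passed the test for mouse_285 over mouse_283 with stage in the model, where 10 of 13278 genes did (0.0753%). Ddit3 was the 1 gene with an unadjusted p under 0.05, at a log2 difference of -0.49 (SE 0.22, unadjusted p = 0.0414, adjusted p = 0.894). Its late values were lower in mouse_285 (18.0 to 21.8 CPM) than in mouse_283 (30.9 to 37.1 CPM), and its early values overlapped. DESeq2 and limma-voom called 0 of the 10 as well.

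Within mouse_285, late against early, the log2 difference of Ddit3 was -1.04 (SE 0.30, unadjusted p = 0.00546, adjusted p = 0.529), and within mouse_283 it was -0.38 (SE 0.28, adjusted p = 0.385). Xbp1 differed by -0.58 (SE 0.30, adjusted p = 0.964) within mouse_285 and -0.67 (SE 0.27, adjusted p = 0.239) within mouse_283. Hspa5 differed by -0.01 (SE 0.61, adjusted p = 0.999) within mouse_285 and 0.80 (SE 0.55, adjusted p = 0.371) within mouse_283. Hsp90b1 differed by 0.42 (SE 0.57, adjusted p = 0.991) within mouse_285 and 1.11 (SE 0.51, adjusted p = 0.264) within mouse_283. None of the 10 was called in either animal, where 0% of all tested genes were called within mouse_285 and 1.36% within mouse_283. At an unadjusted p under 0.05 there were 1 of the 10 and 722 of all genes within mouse_285, and 2 of the 10 and 2512 of all genes within mouse_283. When passages 3 and 4 of mouse_283 were left out, Ddit3 was called within mouse_285 (-1.03, adjusted p = 0.00836). With the GC and length correction it was called within mouse_283 (-0.83, adjusted p = 0.0491). In both of these settings more of all tested genes were called within the animal as well, as given in the section on processing.

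The stage difference itself was compared between the animals through their interaction, which called 0 of the 10 genes and 0 of 13278 in all (0%). At an unadjusted p under 0.05 there were 0 of the 10 and 245 of all genes, and limma-voom called none while DESeq2 called 14 genes, none of them among the 10. The interaction estimate of Ddit3, mouse_285 minus mouse_283, was -0.66 (SE 0.41, adjusted p = 0.989) and that of Hspa5 -0.81 (SE 0.81, adjusted p = 0.989). The errors are as large as many of the estimates, so a moderate difference between the animals could not be detected.

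In the lists of the wider pathway 6 genes passed the test late against early, 4 of them targets of ATF4. Over all tested genes 399 of 13278 did (3%). The number tested in each list is given below, and some genes are in more than 1 list. Of 24 tested sensors and regulators, which include 6 of the 10 genes, 1 was lower and 0 higher. Their median log2 difference was -0.24, beside -0.02 over all genes, with 16 negative and 8 positive. At an unadjusted p under 0.05 by edgeR's test there were 9 of the 24, beside 3174 of all 13278 genes. The 1 called gene was Creb3l3, a liver and gut transcription factor of the OASIS family, which fell by 1.29 on the log2 scale (SE 0.32, adjusted p = 0.0487). It averaged 40.8 ± 12.5 CPM in late libraries (SD, n = 6), against 99.9 ± 43.2 CPM in early ones (SD, n = 5). This call was lost in 9 of 11 fits that left out a library. The other sensors were not called: Eif2ak3, which encodes PERK, averaged 28.3 ± 2.21 CPM in late libraries (SD, n = 6), against 25.7 ± 11.0 CPM in early ones (SD, n = 5), with a log2 difference of 0.13 (SE 0.26, adjusted p = 0.745). Atf6 averaged 47.3 ± 6.74 CPM, against 37.4 ± 20.7 CPM, a log2 difference of 0.34 (SE 0.33, adjusted p = 0.502), and its relative Atf6b 62.1 ± 8.42 CPM, against 87.9 ± 29.7 CPM, a log2 difference of -0.47 (SE 0.21, adjusted p = 0.200). Without passages 3 and 4 of mouse_283, 3 of the 24 were lower: Ddit3, Creb3l3 and Atf3, the stress-induced partner of ATF4, at -0.91 (adjusted p = 0.00102), whose difference over all libraries was -0.82 (SE 0.22, adjusted p = 0.0665).

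Of 31 ER chaperones and folding enzymes, which include 4 of the 10 genes, 0 were called by edgeR's test over all libraries, with a median of 0.12. DESeq2 called 1 and limma-voom 1, and with the GC and length correction 3 were higher. DESeq2 and the correction also called more of all tested genes, as given in the section on processing. At an unadjusted p under 0.05 there were 2 of the 31. Beside the 0.43 of Hspa5 and the 0.80 of Hsp90b1, the log2 difference was -0.14 (SE 0.13) for the lectin chaperone Calr, -0.32 (SE 0.17) for Hyou1, an HSP70 relative, 0.12 (SE 0.13) for the disulfide isomerase Pdia6 and 0.06 (SE 0.28) for Sdf2l1, a BiP cofactor, with adjusted p-values of 0.248 to 0.899. Dnajc10, a disulfide reductase that works with BiP, had the smallest p of the list at 1.01 (SE 0.31, adjusted p = 0.0932). Of 22 genes of ER-associated degradation 0 were called by edgeR's test, 3 by DESeq2 and 0 by limma-voom (median -0.09, 4 at an unadjusted p under 0.05). The nearest to the 10 in role was Herpud1, a target of both ATF6 and ATF4, which had 109.8 to 139 CPM in late libraries, against 120.1 to 357 CPM in early ones, and a log2 difference of -0.75 (SE 0.23, adjusted p = 0.0954). Of 35 genes of ER translocation and glycosylation 1 was lower (median -0.16, 5 at an unadjusted p under 0.05). The lower gene was Kdelr3, a receptor that returns chaperones to the ER, which fell by 0.81 (SE 0.19, adjusted p = 0.0417). It had 4.16 to 6.20 CPM in late libraries, against 8.06 to 13.2 CPM in early ones. Its late libraries were thus below its early ones in both animals, a pattern shown by 5.7% of all tested genes. The call of Kdelr3 was lost in 9 of 11 fits that left out a library.

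Of 40 tested ATF4 target genes, Ddit3 included, 1 was higher and 3 were lower late against early (median -0.28). The log2 difference was negative for 30 of the 40 and positive for 10. At an unadjusted p under 0.05 by edgeR's test there were 18 of the 40, beside 3174 of all 13278 genes. Stc2, a secreted glycoprotein, rose by 1.10 (SE 0.18, adjusted p = 0.00876) and stayed called whichever library was left out, though not without the animal as a term (adjusted p = 0.0566). It had 77.5, 93.0 and 103 CPM in late libraries of mouse_285 and 109, 116 and 127 CPM in those of mouse_283, against 32.1 and 32.2 CPM in early libraries of mouse_285 and 55.4, 79.7 and 69.3 CPM in those of mouse_283. Each animal's late values exceeded its early ones. The 3 lower genes were Aldh18a1, an enzyme of proline synthesis (-0.80, SE 0.16, adjusted p = 0.0187), the cationic amino acid transporter Slc7a3 (-1.38, SE 0.29, adjusted p = 0.0278) and the glycine transporter Slc6a9 (-0.88, SE 0.21, adjusted p = 0.0464). These 3 calls were lost in 5, 5 and 8 of the 11 fits that left out a library. Trib3, an ATF4 target that feeds back on ATF4, did not pass the test at -0.82 (SE 0.27, adjusted p = 0.115), nor did Asns, asparagine synthetase, at -0.39 (SE 0.15, adjusted p = 0.150), or Chac1, which breaks down glutathione, at -0.04 (SE 0.18, adjusted p = 0.909). Without passages 3 and 4 of mouse_283, 2 of the 40 were higher and 6 lower, Ddit3 among them, and the counts were 2 and 6 with the GC and length correction as well. Calls over all tested genes were also more in these settings, at 619 and 924, against 399 over all libraries without the correction.

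Of 14 eIF2 kinases, phosphatase subunits and eIF2 components, 14 cell death genes linked to ER stress and 14 cytosolic heat shock genes, 0 were called by edgeR's test, with medians of 0.05, 0.08 and 0.21. At an unadjusted p under 0.05 there were 2, 4 and 8 of these genes, beside 3174 of all 13278. DESeq2, which also called more of all tested genes than edgeR's test did, called 0, 2 and 3 of them, and limma-voom 0, 1 and 1. In mouse_285 over mouse_283, 0 genes of these 8 lists were called by edgeR's test. Of the 40 ATF4 targets, 34 had a negative log2 difference between the animals and 6 a positive one, with a median of -0.33 beside 0.00 over all genes, and 9 had an unadjusted p under 0.05, as did 640 of all 13278 genes. Negative differences were also in the majority for ER chaperones (24 of 31), translocation and glycosylation (25 of 35), ER-associated degradation (17 of 22), sensors and regulators (16 of 24) and cell death genes (10 of 14). They were not for the eIF2 list (7 of 14) or heat shock genes (6 of 14). Among cell markers they were for goblet (13 of 14, median -0.32), epithelium (6 of 7) and Paneth markers (6 of 10). They were not for enterocyte (3 of 11), enteroendocrine (5 of 12), tuft (2 of 6) or stem cell markers (2 of 6). The part of these cell types in the result was not tested.

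**Figure D5:**
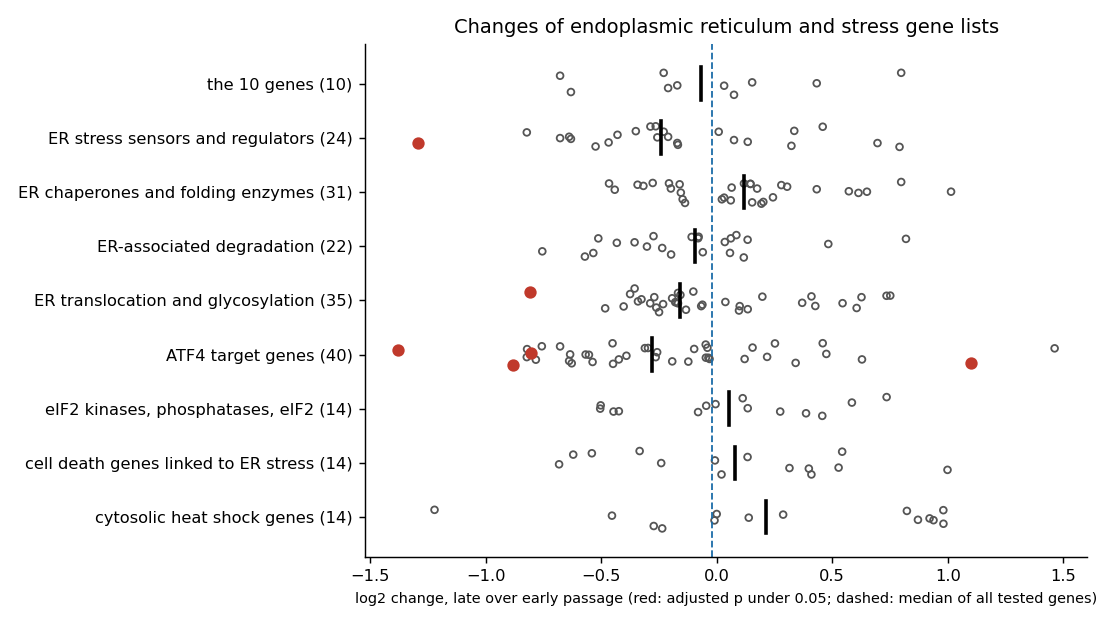
Log2 difference, late over early, of every tested gene in the 10-gene set and in 8 lists of ER and stress genes (number tested in parentheses); red points have an adjusted p under 0.05, black bars are list medians and the dashed line is the median of all tested genes (-0.02). The red points are Creb3l3, Kdelr3, Slc7a3, Slc6a9 and Aldh18a1 below 0 and Stc2 at 1.10.

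Marker levels of the epithelial cell types differed between libraries, and the goblet markers were set beside the 10 genes because goblet cells secrete heavily. The summed level of 16 goblet markers, none of them among the 10 genes and 1 of which (Retnlb) had no reads, ran from 3003 to 5330 CPM in late libraries, against 3738 to 8556 CPM in early ones, and was highest at passage 3 of mouse_283. Log2 CPM of Xbp1 had a Pearson r with this sum of 0.90 over 11 libraries and 0.81 over 9, and Ern1 one of -0.02 over 11 and 0.79 over 9. Hsp90b1 went the other way, with -0.61 over 11 and -0.44 over 9, and Creb3l1 had 0.39 over 11 and -0.17 over 9. The values of the other 6 genes ran from -0.46 to 0.71 over 11 and from 0.07 to 0.65 over 9, and all are descriptions over libraries that share 2 animals. The median log2 difference of the 14 goblet markers tested, late over early, was -0.14, with 5 positive and 9 negative. Summed Paneth markers (11 genes, none at 0 in all libraries) ran from 1344 to 2411 CPM in late libraries, against 1029 to 3137 CPM in early ones. Summed enterocyte markers (11 genes) ran from 2475 to 3415 CPM, against 4054 to 5273 CPM, without overlap, and 5 of 11 were lower, where 311 of all 13278 genes were. Summed tuft cell markers (8 genes) ran from 7.51 to 12.2 CPM in late libraries, against 18.9 to 25.2 CPM in early ones, also without overlap, and 3 of 6 tested were lower. Of 12 enteroendocrine markers 2 were higher, where 88 of all genes were, and their sum ran from 795 to 1159 CPM in late libraries, against 626 to 889 CPM in early ones. The part of these cell types in the values of the 10 genes was not tested. Markers of plasma cells, which also use Xbp1, summed to 23.8 to 32.6 CPM in late libraries, against 18.2 to 43.1 CPM in early ones. Of the 9 found, 2 had no reads (Igkc and Tnfrsf17), and Jchain and Mzb1 reached at most 0.0722 and 0.125 CPM. The list also holds Fkbp11, one of the ER folding enzymes counted above.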

How the data were processed

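The authors deposited, per the labels and file layout, a table of reads counted for every gene in each of 11 libraries. Trimmomatic, STAR and build mm9 are named in the submitters' processing notes; versions and annotation are not given in the sources used here. The first strand column held 50.0% to 50.2% of stranded reads, so the unstranded counts were used as deposited, without summary lines (reads in no gene 3.77% to 11.7%). Passages come from the sample titles; file names give a passage higher by 1. No pair of libraries agreed within sampling noise (lowest chi-square per degree of freedom 15.1). Symbols were matched for 32620 of 37310 identifiers.

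Genes were filtered with filterByExpr on stage, scaled by TMM and tested two-sided with edgeR 4.0.16 (R 4.3.3), by the quasi-likelihood F test with terms for animal and stage, or for their 4 combinations in tests within an animal and of the interaction. P-values were adjusted by Benjamini-Hochberg over 13278 genes, with calls at 0.05. An SE is the log2 difference over the square root of F. CPM are scaled by TMM, and correlations used log2 CPM with a prior count of 2. Lengths and GC content came from GENCODE M21, known for 97.3% of tested genes. The animal was a term because each animal gave libraries to both stages. After centring within each stage, the median correlation across stages was 0.13 within an animal and -0.14 between animals. The centring ties these values to each other, so the second is not separate support. A count of 3 equals 0.104 to 0.198 CPM and covers counting error only.

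Alternatives were other scalings and filters, DESeq2 1.42.0, limma-voom (limma 3.58.1), no animal term, each library left out, passages 3 and 4 of mouse_283 left out, and offsets from splines (5 degrees of freedom) on GC content and length. A filter on stage and animal and a slope on passage number were added after values were seen. The fits were tested on simulated data. The 10 genes and the lists were chosen with earlier results of these data known. The rule for other names was up to 4 genes per list with the smallest unadjusted p under 0.05 late against early, up to 2 between animals, 19 listed genes, and the 5 genes most like Hspa5, Ddit3, Ern2 and Creb3l1; those on which no result turns are not printed.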

Additional observations from a re-analysis of the deposited data

Results flagged for a closer look

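A test for a library far from the rest of its group was applied to the 10 genes and to 8 other genes of the pathway in each stage, 36 groups in all, of which chance alone marks about 1 in 20. It marked 2 values, both from passage 3 of mouse_283. Atf4 was at 583 CPM there, the highest of the 5 early libraries, the gap to the next being 0.737 of the group's range. Kdelr3 was at 13.2 CPM there, with a gap of 0.893 of the range. No gene of the 10 had a stage difference that differed between the animals by the interaction test, or whose libraries lay wholly on opposite sides in the 2 animals.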

How the results depend on the processing

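The 10 genes kept their late-early direction under every alternative run except as follows. Without passages 3 and 4 of mouse_283, Hspa5 was -0.14 and Dnajb9 -0.45. Between animals, without those 2 libraries, Hspa5 was -0.37, Hsp90b1 -0.050, Ern2 -0.029 and Creb3l1 0.0067. Over all libraries these between-animal values were 0.09, 0.36, 0.14 and -0.29. Within mouse_283, without the 2 libraries, Hspa5 was -0.34, and its interaction estimate was 0.33. Both of these rest on passage 2 as the only early library of mouse_283, the library with the highest Hspa5 level of all. With the GC and length correction Atf4 was 0.16, Dnajb9 -0.25 and Ern2 0.031, and Atf4 between animals was 0.0044, against -0.15 without it. With a slope on passage number Dnajb9 was -0.0048 per passage. Within mouse_285 Hspa5, at -0.01, was 0.0058 with limma-voom, 0.021 with no filter and 0.0096 with upper quartile scaling. Leaving out each library in turn, Creb3l1 ran from -0.083 to 0.32, Dnajb9 from -0.17 to 0.44 and Ern2 from -0.32 to 0.052. In the same fits Hspa5 within mouse_285 ran from -0.24 to 0.26. Between animals they gave -0.11 to 0.56 for Hspa5, -0.18 to 0.34 for Dnajb9 and -0.26 to 0.066 for Ern1. The causes were not tested.

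Genes called late against early (399) were 1290 with DESeq2, 924 with the GC and length correction, 1819 with no filter, 262 with a slope on passage number, 619 without passages 3 and 4 of mouse_283 and 172 to 4892 leaving out each library, the highest without passage 2 of mouse_283. Within mouse_283 (181) they were 679, 533 and 1446 with DESeq2, correction and no filter, 723 without the 2 libraries and 36 to 7659 leaving out each library. Within mouse_285 (0) they were 74, 31, 114, 324 and 0 to 64 in the same order. Between animals (10) they were 110, 26, 207, 91 and 3 to 71, and 6 with upper quartile scaling. For the interaction (0) they were 14, 1, 65, 4 and 0 to 2346.

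Of the 10 genes, late against early, 2 were called with DESeq2, 2 with the correction, 1 with no filter (Hsp90b1), 1 without the 2 libraries and 0 to 3 leaving out each library. Within mouse_283 it was 1 with the correction, 1 with no filter and 0 to 4 leaving out each library; within mouse_285 it was 1 without the 2 libraries; for the interaction it was 0 to 3 leaving out each library.

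Sensors and regulators (1 called) had 0 with the 1 CPM filter, DESeq2 size factors and limma-voom, 5 with DESeq2, 2 with the correction, 4 with no filter, 3 without the 2 libraries and 0 to 11 leaving out each library. Chaperones (0) had 1, 3, 5 and 1 with DESeq2, correction, no filter and limma-voom, and 0 to 8 leaving out each library. ER-associated degradation (0) had 3, 1 and 2 with DESeq2, correction and no filter, and 0 to 7. Translocation (1) had 3 with no filter, 2 without the 2 libraries and 0 to 11. ATF4 targets (4) had 11, 8 and 10 with DESeq2, correction and no filter, 8 without the 2 libraries, 2 with no replicate block and 1 to 23. The eIF2 list (0) had 2 with no filter, 1 without the 2 libraries and 0 to 7. Cell death genes (0) had 2 with DESeq2, correction and no filter, 1 with DESeq2 size factors, limma-voom, the filter on stage and animal, and without the 2 libraries, and 0 to 7. Heat shock genes (0) had 3, 3, 6 and 1 with DESeq2, correction, no filter and limma-voom, 1 without the 2 libraries and 0 to 8.

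With no replicate block, that is without the animal as a term, 384 genes and 0 of the 10 were called; Stc2 had an adjusted p of 0.0566, and no call among the 10 changed. With 2 animals and 11 libraries, low-expressed genes such as Ern2 have the widest counting error.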
